A study of Mus musculus with 6 samples.

Results

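Potassium channel genes were examined in pooled mouse embryonic hearts at embryonic day 9.5. Members were all protein-coding genes whose symbol starts with Kcn, a single letter and a number, on array rows that carry 1 gene symbol. Each gene was read from its brightest row, and this gave 75 of 22180 genes measured on single-symbol rows, of which 18961 were protein-coding. Kcnq1ot1 and Kcnd3os were left out as noncoding. All samples were of strain C57BL/6 and carried floxed Hdac3 alleles. The 3 Hdac3-flox/flox pools had no Cre, and the 3 Hdac3-Isl1KO pools had the genotype Hdac3-flox/flox; Isl1-Cre. Hdac3 encodes a histone deacetylase of corepressor complexes. Isl1-Cre recombines in cells that express Isl1, among them the second heart field, which builds the right ventricle and outflow tract. The share of cells that lost the gene was not measured. With no Cre in the controls, effects of the Isl1-Cre allele and of Hdac3 loss cannot be told apart. How many hearts or litters made up a pool is not known here, so p-values measure pool-to-pool spread, some of which may be technical.

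Potassium channels let potassium leave the cell and so set the resting potential and end each action potential. Voltage-gated pores (Kcna, Kcnb, Kcnc, Kcnd, Kcnh, Kcnq) open on depolarisation. Their so-called silent relatives (Kcnf, Kcng, Kcns, Kcnv) form no channel alone and alter Kcnb channels, and the small Kcne proteins sit beside a pore and change its gating. Inward rectifiers (Kcnj) hold the resting potential, tandem-pore channels (Kcnk) carry leak current, and Kcnn, Kcnt and Kcnu channels open with calcium, sodium or alkaline pH. In heart muscle, Kcnq1 with Kcne1 carries the slow and Kcnh2 the rapid delayed rectifier current, Kcnj2 the resting current, and Kcnj3 with Kcnj5 the current that acetylcholine opens in atria and the sinus node.

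The promoters of 4 members are shown, picked after the comparison. Kcne1l was the member that passed the test. Kcnj3, Kcnj5 and Kcnc1 did not pass. Kcnj3 and Kcnj5 encode the subunits of 1 channel and were both lower, and Kcnc1 had the smallest p-value among members with higher values. The sequences are the 250 bases before the gene start from RefSeq, build GRCm38.p6, written 5′ to 3′ on the gene's strand. Capitals mark matches, on either strand, to an E-box (CANNTG), a GATA motif (GATAA), a T-box core (AGGTGT) or a TATA box (TATAAA).
Kcne1l, chrX:142306199-142306448, minus strand: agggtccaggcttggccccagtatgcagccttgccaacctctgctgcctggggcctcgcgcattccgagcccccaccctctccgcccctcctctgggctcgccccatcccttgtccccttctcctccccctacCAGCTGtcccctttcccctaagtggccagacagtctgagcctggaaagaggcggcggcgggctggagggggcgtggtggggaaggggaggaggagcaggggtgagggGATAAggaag
Kcnj3, chr2:55435720-55435969, plus strand: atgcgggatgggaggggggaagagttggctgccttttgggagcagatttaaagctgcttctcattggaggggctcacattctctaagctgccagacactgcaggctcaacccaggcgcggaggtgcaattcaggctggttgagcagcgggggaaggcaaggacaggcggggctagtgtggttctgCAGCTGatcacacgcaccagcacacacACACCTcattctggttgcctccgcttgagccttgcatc
Kcnj5, chr9:32344345-32344594, minus strand: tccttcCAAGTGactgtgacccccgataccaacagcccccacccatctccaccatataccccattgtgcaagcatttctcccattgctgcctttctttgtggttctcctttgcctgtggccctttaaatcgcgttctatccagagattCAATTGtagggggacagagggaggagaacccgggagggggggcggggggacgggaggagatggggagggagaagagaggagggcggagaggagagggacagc
Kcnc1, chr7:46396218-46396467, plus strand: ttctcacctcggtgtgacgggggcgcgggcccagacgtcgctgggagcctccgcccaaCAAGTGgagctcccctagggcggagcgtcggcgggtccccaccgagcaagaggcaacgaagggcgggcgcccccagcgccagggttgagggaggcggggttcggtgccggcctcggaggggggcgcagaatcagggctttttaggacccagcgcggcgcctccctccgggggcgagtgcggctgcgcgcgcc

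The Kcne1l window held 1 E-box and 1 GATA match, which did not overlap. The Kcnj3 window held 1 E-box and 1 T-box core match, the Kcnj5 window 2 E-boxes and the Kcnc1 window 1 E-box. No motif matches overlapped in these windows. Kcnc1 stood out in composition, with 30 CpG dinucleotides and 74.4% G or C, against 9 and 68.0% for Kcne1l, 7 and 58.4% for Kcnj3 and 7 and 58.0% for Kcnj5. Windows were found for 56 of the 75 members, with 1 window per gene. An E-box was in 40 of them (71.4%, against 62.7% of 17491 protein-coding genes), a GATA motif in 8 (14.3% against 21.0%), a T-box core in 12 (21.4% against 11.2%) and a TATA box in 1 (1.79% against 12.4%). The median CpG count was 9 in members and 10 over all these genes. A match is a string of letters, not a shown binding site.

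Values are RMA log2 signals, and the difference is always Hdac3-Isl1KO minus Hdac3-flox/flox. Any pair of arrays correlated at 0.980 to 0.989, and array medians were 5.64 to 5.71. Hdac3-flox/flox replicate 2 correlated least with the rest (0.982 on average). Hdac3 itself read 9.67, 9.73 and 9.64 in Hdac3-flox/flox and 9.11, 9.20 and 9.31 in Hdac3-Isl1KO, with no overlap (difference -0.47, limma adjusted p = 0.0636). Isl1 differed by -0.03 (limma adjusted p = 0.913), and by 0.03 after quantile normalization. Cardiomyocyte markers were bright on every array, the dimmest of the 10 being Nkx2-5 with a mean of 9.48, as the tissue label states. Their mean was 11.253 to 11.259 in Hdac3-flox/flox and 11.165 to 11.200 in Hdac3-Isl1KO, 8 of 10 had negative differences and the median was -0.10. Epicardial markers had 5 of 6 below 0 (mean 8.32 to 8.44 against 7.92 to 7.94). Upk3b (-0.94) and Upk1b (-0.72) passed (limma adjusted p = 0.00895 and 0.0268). Aldh1a2 (-0.66), Tbx18 (-0.19) and Tcf21 (-0.19) did not, and Wt1 differed by 0.001. Liver and yolk sac endoderm (6 of 6, 5.45 to 5.7 against 6.13 to 6.16) and epithelial markers (6 of 6, 6.03 to 6.05 against 6.45 to 6.51) lay above 0. Of these only Fgb passed (0.93, limma adjusted p = 0.0204). Of 4 trophoblast markers (mean 5.11 to 5.31 against 5.7 to 5.75) Prl4a1 rose by 1.81 (limma adjusted p = 0.00127), and the other 3 differed by -0.04 to 0.19 with overlapping groups. Smooth muscle markers lay above 0 (5 of 5, 10.24 to 10.29 against 10.36 to 10.41), without overlap of these means. Tagln (0.29), Myh11 (0.21) and Acta2 (0.07) separated the groups, and Cnn1 (0.01) and Myocd (0.04) did not. None of them passed. Early cardiomyocytes share Acta2 and Tagln, so this list does not mark smooth muscle alone. Neural and neural crest (5 of 8 above 0, 5.63 to 5.77 against 5.67 to 5.74) and endothelial markers (3 of 6, 9.0 to 9.09 against 9.0 to 9.03) had overlapping means. Those of primitive red cells overlapped as well (1 of 3, 10.96 to 11.09 against 11.0 to 11.10). The dimmest marker of each list lay between 4.35 (Sox2) and 9.73 (Hba-x). Sox2 and Tpbpa (4.36) lay under the 25th percentile of all rows, 4.45. Alb (4.84), Cldn7 (4.93), Epcam (4.97) and Fgb (5.40), among others, lay under the median row, 5.66. At such signals expression and background cannot be told apart without detection calls. The part of these cell types in the channel values was not tested.

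Of the 75 potassium channel genes, 1 passed the test, Kcne1l, which fell in the Hdac3-Isl1KO hearts, and 0 were called higher. Among all 22180 genes 0.428% were called, 0.198% lower and 0.23% higher (limma, Benjamini-Hochberg adjusted p under 0.05). At an unadjusted limma p under 0.05 there were 13 members, 6 higher and 7 lower, or 17.3%, beside 14.5% of all genes, 6.57% higher and 7.96% lower. The values of both groups did not overlap for 16 members, 7 higher and 9 lower, or 21.3%, beside 21.8% of all genes, 9.41% higher and 12.4% lower. These shares lie near those of all genes and are no result about the family. The median difference was 0.013 in members and 9.4e-05 over all genes, with 40 members above and 35 below 0. Differences ran from -0.66 for Kcne1l to 0.42 for Kcns1.

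**Figure D1:**
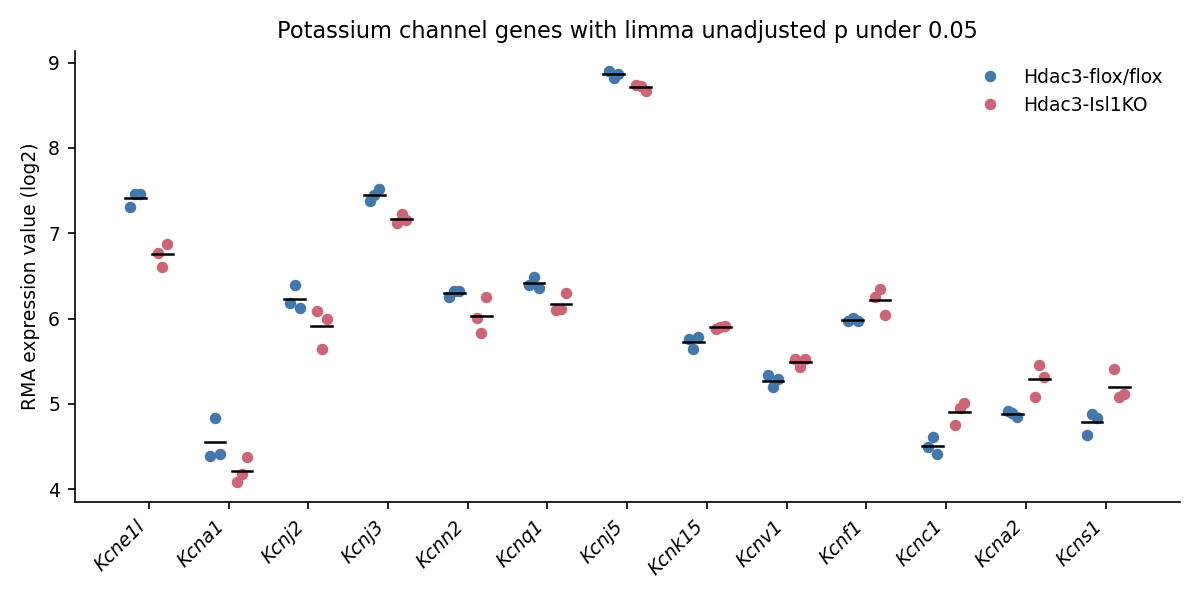
RMA log2 values (y axis) of the 13 potassium channel genes with a limma unadjusted p under 0.05 (x axis, ordered by difference), with 1 point per array and a line at each group mean (3 arrays per group). Kcne1l shows the widest gap, between 7.31 to 7.47 in Hdac3-flox/flox and 6.61 to 6.88 in Hdac3-Isl1KO, and only Kcnn2 has overlapping groups.

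Kcne1l, also named Kcne5, encodes an accessory subunit that holds back Kcnq1 channels, and lies on the X chromosome. It read 7.31, 7.46 and 7.47 in Hdac3-flox/flox and 6.77, 6.61 and 6.88 in Hdac3-Isl1KO. Every Hdac3-Isl1KO array lay below every control. The means were 7.41 ± 0.09 and 6.75 ± 0.14 (SD, n = 3 each), which is 1.58-fold lower (difference -0.66, 95% interval -0.88 to -0.44, limma adjusted p = 0.0497). In whole pooled hearts, fewer expressing cells and less RNA per cell cannot be told apart. The call lay at the threshold. It was lost with any array left out (limma adjusted p = 0.133 to 0.190, difference -0.72 to -0.59). Those fits called 2 to 25 of 22180 genes, beside 95 as reported. Kcne1l also missed narrowly with quantile normalization (0.0516), median-centred arrays (0.0541) and genes read from the mean of their rows (0.0524). With a trended variance prior, one fitted to the mean level, the adjusted p was 0.00226, so the range over the alternatives was 0.00225 to 0.193. That prior called 866 of 22180 genes, beside 95 as reported. Sex-linked genes were present on all arrays. Xist read 9.95 to 9.97 in Hdac3-flox/flox and 9.76 to 9.92 in Hdac3-Isl1KO, and the Y-linked Eif2s3y 8.64 to 8.67 and 8.26 to 8.63. The other X-linked member, Kcnd1, differed by 0.01. The part of the sex of the embryos in Kcne1l was not tested.

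The other Kcne subunits had small differences. Kcne1, the partner of Kcnq1, read 6.99, 7.20 and 7.01 in Hdac3-flox/flox and 6.93, 7.02 and 6.90 in Hdac3-Isl1KO, with overlapping groups and a difference of -0.12 (95% interval -0.32 to 0.08, limma adjusted p = 0.569). Kcne2 differed by 0.01, Kcne3 by -0.07 and Kcne4 by 0.06, and each of these signs turned with some array left out. The pore they modulate, Kcnq1, read 6.40, 6.49 and 6.36 in Hdac3-flox/flox and 6.09, 6.11 and 6.30 in Hdac3-Isl1KO. Its groups did not overlap, and the difference was -0.25 (95% interval -0.44 to -0.05), with a limma unadjusted p of 0.0201 and an adjusted p of 0.254. The difference of Kcnq1 lay between -0.31 and -0.21 over all settings tried. The relatives Kcnq5 (-0.06) and Kcnq3 (-0.03) are best known from neurons. Kcnq5 turned sign without Hdac3-flox/flox replicate 3 and with array weights.

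Kcnh2, the pore of the rapid delayed rectifier, was among the brighter members and did not separate the groups. It read 8.38, 8.37 and 8.16 in Hdac3-flox/flox and 8.15, 8.26 and 8.34 in Hdac3-Isl1KO. The difference was -0.05 (95% interval -0.26 to 0.17, limma adjusted p = 0.847), and it was 6.4e-04 without Hdac3-Isl1KO replicate 1. The interval leaves out a change as large as that of Kcne1l. Of the 8 Kcnh genes 4 lay above and 4 below 0, from -0.16 for Kcnh1 to 0.22 for Kcnh3, and 0 had a limma unadjusted p under 0.05.

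Among the inward rectifiers, 3 of 14 had a limma unadjusted p under 0.05 and all 3 were lower (21.4%, beside 14.5% of all genes in either direction and 7.96% lower), while 8 lay above and 6 below 0 (median 0.04). Kcnj3, a subunit of the atrial muscarinic channel, read 7.38, 7.44 and 7.52 in Hdac3-flox/flox and 7.13, 7.22 and 7.15 in Hdac3-Isl1KO. The groups were tight and apart, at 7.45 ± 0.07 and 7.17 ± 0.05 (SD, n = 3 each). At 1.22-fold lower, the difference of -0.28 (95% interval -0.45 to -0.11) came with a limma unadjusted p of 0.00557 and an adjusted p of 0.171. It passed only when genes below the median row were left out (limma adjusted p = 0.0462), and lay between -0.32 and -0.22 over all settings. Leaving those genes out called 617 of 12480 genes, beside 95 of 22180 as reported. A dimmer array row of Kcnj3 differed by -0.32 (unadjusted p = 0.142 with limma).

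Its partner Kcnj5 was brighter and also lower. It read 8.90, 8.82 and 8.87 in Hdac3-flox/flox and 8.74, 8.73 and 8.67 in Hdac3-Isl1KO, without overlap. The difference was -0.15 (limma unadjusted p = 0.0499, adjusted p = 0.344). Kcnj2, the main pore of the ventricular resting current, read 6.18, 6.40 and 6.12 in Hdac3-flox/flox and 6.09, 5.65 and 5.99 in Hdac3-Isl1KO. Its arrays scattered more widely, and the closest values of the 2 groups were 6.12 and 6.09. The difference was -0.32 (95% interval -0.64 to -0.01, limma adjusted p = 0.334), and -0.19 without Hdac3-Isl1KO replicate 2, the lowest array. The other pores of that current, Kcnj12 (0.02), Kcnj4 (0.10) and Kcnj14 (0.16), had smaller differences and overlapping groups. Kcnj12 and Kcnj14 turned sign with some array left out. Kcnj16, next to Kcnj2 in the RefSeq gene order, differed by 0.15.

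The genes of receptor control around Kcnj3 and Kcnj5 were fixed as a list of 12, of which 10 were measured. None passed the test, 7 lay below 0, and 3 had a limma unadjusted p under 0.05, all lower. That is 30.0%, beside 14.5% of all genes and 18.7% of those with a mean signal above the median gene, where all 10 lie. Chrm2, the muscarinic receptor of the heart, read 6.77, 6.66 and 6.72 in Hdac3-flox/flox and 6.40, 6.28 and 6.33 in Hdac3-Isl1KO. These groups were further apart than those of either channel subunit (difference -0.38, 95% interval -0.54 to -0.21, limma adjusted p = 0.0899). Rgs6 and Gnb5, whose products form a complex that switches the G protein off, differed by -0.25 (7.49 ± 0.04 against 7.24 ± 0.10) and -0.22 (7.98 ± 0.07 against 7.76 ± 0.08; SD, n = 3 each, limma adjusted p = 0.223 and 0.271). Both separated the groups. The G protein subunit genes Gnai1 (-0.15), Gnao1 (-0.11), Gnai2 (-0.02), Gnai3 (0.01), Gnb1 (-0.02) and Gnb4 (0.04) and the regulator Rgs4 (0.05) had smaller differences. Of these, Gnai1 and Gnao1 also had groups without overlap. On the list 5 of 10 genes had no overlap, all lower (50%). The shares were 21.8% of all genes and 31.1% of those above the median gene, in either direction. Chrm2 passed with genes below the median row (0.0170) or the 25th percentile row (0.0489) left out, with either trended prior (0.0344 and 0.0359) and with array weights (0.0428), each a limma adjusted p. Each of these settings also called more of all genes, 235 to 866 beside 95 as reported. The range over the alternatives of Chrm2 was 0.0170 to 0.302.

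**Figure D2:**
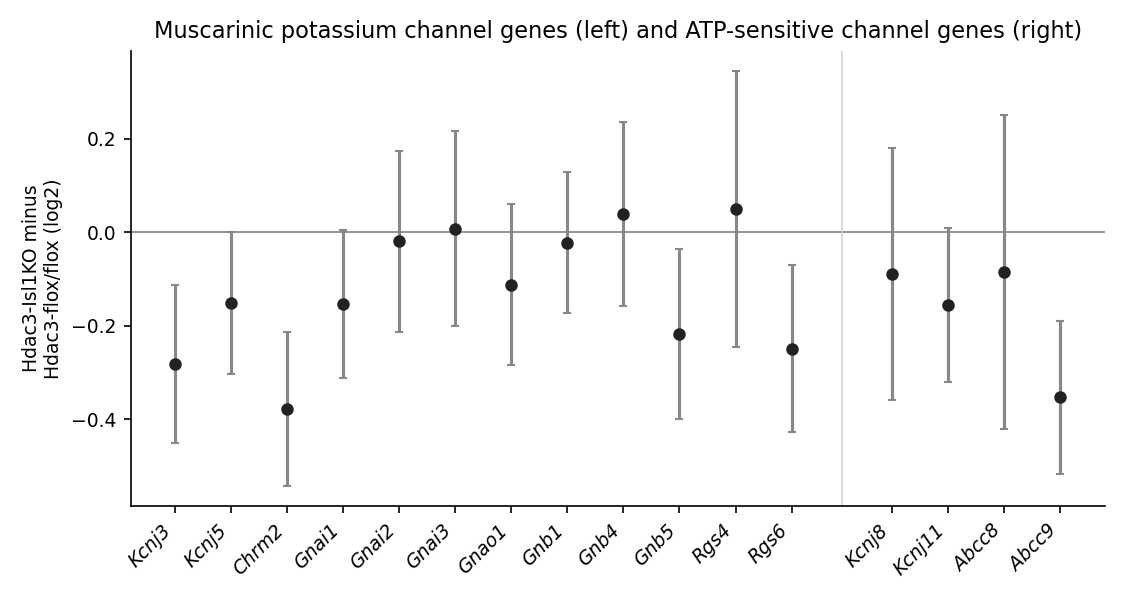
Differences in log2 value, Hdac3-Isl1KO minus Hdac3-flox/flox (y axis), with 95% intervals from limma for genes of the muscarinic potassium channel and its control (left) and of the ATP-sensitive channel (right). Kcnj3 (-0.28), Chrm2 (-0.38), Gnb5 (-0.22), Rgs6 (-0.25) and Abcc9 (-0.35) have intervals below 0, and the upper bound of Kcnj5 (-0.15) lies just under 0.

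Channels that close when ATP is plentiful pair a Kcnj8 or Kcnj11 pore with a sulfonylurea receptor from Abcc8 or Abcc9. Abcc9, the form of heart and vascular muscle, read 9.82, 9.78 and 9.85 in Hdac3-flox/flox and 9.5, 9.38 and 9.5 in Hdac3-Isl1KO. No array overlapped (difference -0.35, 95% interval -0.52 to -0.19, limma adjusted p = 0.0998). It passed when genes below the median row were left out (0.0202) and with either trended prior (0.00268 with the plain one), and missed in the other alternatives (up to 0.314). Those settings called 617 of 12480 and 866 of 22180 genes, beside 95 of 22180 as reported. Kcnj11 read 6.91, 6.82 and 6.81 against 6.62, 6.74 and 6.70, also without overlap (difference -0.16, limma adjusted p = 0.371). Kcnj8 (-0.09), which neighbours Abcc9 in the RefSeq gene order, and Abcc8 (-0.08), which neighbours Kcnj11, had overlapping groups.

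Voltage-gated pores of the Kcna, Kcnb, Kcnc and Kcnd families gave 10 of 15 members above 0 and a median of 0.04. Kcna4, a pore of the transient outward current, was the brightest member. It read 9.31, 9.72 and 9.35 in Hdac3-flox/flox and 9.37, 9.07 and 9.19 in Hdac3-Isl1KO. The groups overlapped and Hdac3-flox/flox replicate 2 was high (difference -0.25, limma adjusted p = 0.449), and without that array the difference was -0.12. Kcna5, of the ultrarapid current, differed by -0.10, and the transient outward pores Kcnd2 and Kcnd3 by -0.18 and 0.11, all with overlapping groups. Kcna2, a pore of axons, read 4.91, 4.89 and 4.85 in Hdac3-flox/flox and 5.09, 5.46 and 5.32 in Hdac3-Isl1KO. The higher group was the more scattered (difference 0.40, 95% interval 0.16 to 0.65, limma adjusted p = 0.176). Its neighbours in the RefSeq gene order, Kcna3 (0.06) and Kcna10 (0.02), stayed close to 0.

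Kcnc1, a fast pore of rapidly firing neurons, read 4.49, 4.62 and 4.41 in Hdac3-flox/flox and 4.75, 4.95 and 5.01 in Hdac3-Isl1KO. The groups were apart (difference 0.40, 95% interval 0.17 to 0.62), with a limma unadjusted p of 0.00443 and an adjusted p of 0.159. The other measured Kcnc genes, Kcnc2 (0.22) and Kcnc4 (0.05), had overlapping groups. Kcna1, also an axonal pore, read 4.39, 4.84 and 4.41 in Hdac3-flox/flox and 4.09, 4.18 and 4.37 in Hdac3-Isl1KO. Its difference was -0.33 (limma unadjusted p = 0.0498, adjusted p = 0.344), and it was -0.19 without Hdac3-flox/flox replicate 2, the high array. The mean signal of Kcna1, 4.38, lay under the 25th percentile of all rows, 4.45, and those of Kcnc1 (4.70) and Kcna2 (5.09) lay under the median row, 5.66. Without detection calls, expression and background cannot be told apart at such signals. The neural and neural crest markers, 5 of 8 above 0 with a median of 0.13, had overlapping mean signals in the 2 groups. Tubb3 (0.23), Stmn2 (0.23), Sox2 (0.15), Elavl4 (0.13) and Sox10 (0.12) lay above 0. Nefl (-0.34), Elavl3 (-0.21) and Snap25 (-0.19) lay below, and only Snap25 had groups without overlap. None of these markers passed, and their part in the channel values was not tested.

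Of the 10 silent subunit genes, 3 had a limma unadjusted p under 0.05, all higher (1 each of Kcnf, Kcns and Kcnv), beside 6.57% higher of all genes. All 3 Kcns and both Kcnv genes lay above 0 in every setting tried, though 1 gene of each had an unadjusted p under 0.05. The 4 Kcng genes lay below 0 with none under that p, and 3 of the 4 differences were -0.08 to -0.01. Only 3 Kcng genes lay below 0 after quantile normalization, with array weights or without Hdac3-Isl1KO replicate 3, and 2 without Hdac3-flox/flox replicate 1 or Hdac3-Isl1KO replicate 1. Kcns1 read 4.64, 4.88 and 4.83 in Hdac3-flox/flox and 5.41, 5.08 and 5.11 in Hdac3-Isl1KO. This was the largest positive difference of the family (0.42, 95% interval 0.15 to 0.69, limma adjusted p = 0.194), and Hdac3-Isl1KO replicate 1 was its high array (0.31 without it). Kcnv1 read 5.34, 5.20 and 5.29 against 5.52, 5.43 and 5.53 (0.22, limma adjusted p = 0.244). Kcnf1 read 5.97, 6.01 and 5.97 against 6.25, 6.35 and 6.04 (0.23, limma adjusted p = 0.315). The groups of Kcnv1 and Kcnf1 were apart, though for Kcnf1 Hdac3-Isl1KO replicate 3 came close to the controls. The mean signals of Kcns1 (4.99) and Kcnv1 (5.38) lay under the median row, 5.66, where expression and background cannot be told apart without detection calls. Kcng1 (-0.24) separated the groups as well, at a limma unadjusted p of 0.0513, and Kcng2, known from heart muscle, differed by -0.01 and turned sign after quantile normalization (0.05).

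Of the 13 tandem-pore genes, 7 lay above 0 (median 0.05), and they ran from -0.18 for Kcnk5 to 0.31 for Kcnk13. Kcnk15 read 5.76, 5.64 and 5.78 in Hdac3-flox/flox and 5.88, 5.91 and 5.91 in Hdac3-Isl1KO, without overlap (difference 0.17, limma unadjusted p = 0.0424, adjusted p = 0.324). It was the member of this class with an unadjusted p under 0.05. The stretch-activated leak channel Kcnk2 (0.10), Kcnk1 (0.05) and Kcnk6 (-0.06) did not separate the groups, and the last 2 turned sign in some settings. Of the small-conductance calcium-activated genes, Kcnn2, which is found in atrial muscle, read 6.25, 6.33 and 6.32 in Hdac3-flox/flox and 6.01, 5.83 and 6.26 in Hdac3-Isl1KO. Hdac3-Isl1KO replicate 3 lay within the controls (difference -0.27, limma adjusted p = 0.342). The difference was -0.17 without Hdac3-Isl1KO replicate 2, the lowest array, and -0.38 without replicate 3. Kcnn4 differed by -0.15, Kcnn3 by -0.07 and Kcnn1 by 0.04. The Kcnt and Kcnu genes ran from -0.23 for Kcnt2 to 0.10 for Kcnt1.

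**Figure D3:**
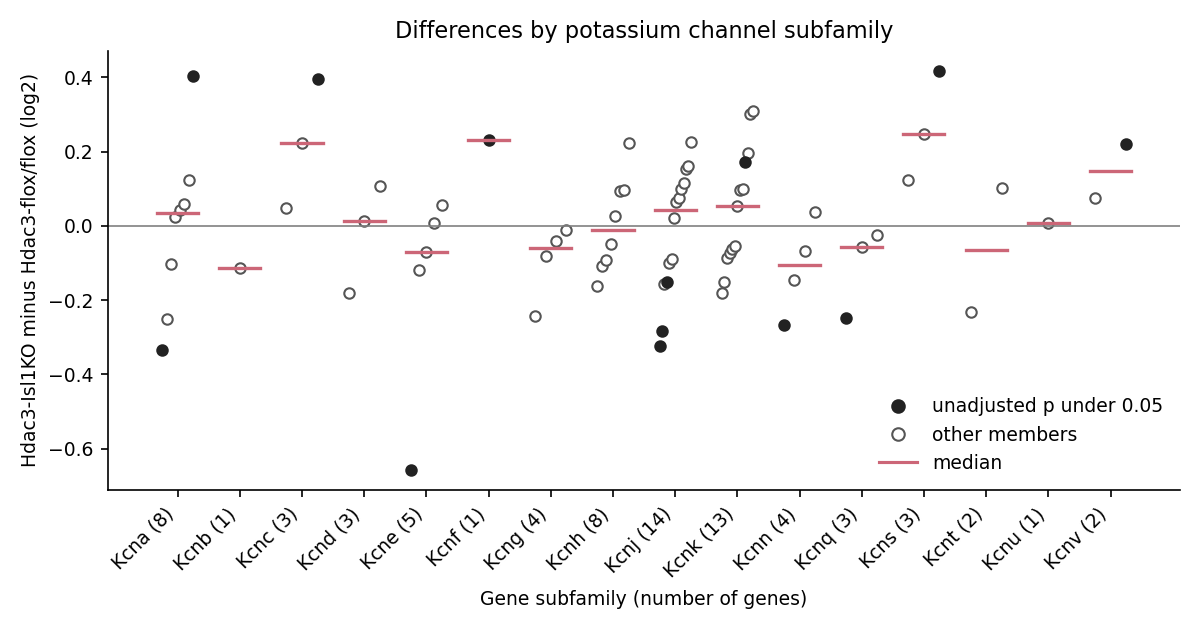
Difference in log2 value, Hdac3-Isl1KO minus Hdac3-flox/flox (y axis), of all 75 potassium channel genes by subfamily (x axis, number of genes in brackets). Filled points have a limma unadjusted p under 0.05 and lines are medians. Kcne1l stands alone at -0.66, the 3 filled Kcnj genes lie below 0, and the Kcns and Kcnv genes lie above 0.

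The sign of the difference varied with the signal. The members were split at 6.05, the median over all genes of the mean of 6 arrays. Of the 48 dimmer members 34 lay above 0 (median 0.07), and of the 27 brighter members 21 lay below 0 (median -0.12). The 10 brightest members all lay below 0, though Kcnk6 and Kcng2 turned sign after quantile normalization and Kcnh2, Kcnq5, Kcnk6 and Kcng2 with some array left out. All genes leaned the same way by less, with medians of 0.04 for dimmer and -0.03 for brighter genes, and 41.4% and 58.6% of genes below 0. Members and all genes are spread unlike over signal within these groups. Between 4.72 and 6.05, which held 40 members, 32.5% of members and 37.6% of genes were below 0 (medians 0.07 and 0.05). Between 6.05 and 7.78, which held 23 members, the shares were 73.9% and 57.9% (medians -0.12 and -0.03). After quantile normalization the brighter members had 18 of 27 below 0 (median -0.06), while the median of the brighter genes overall turned to 0.01. Over the settings that kept all members, between 66.7% and 81.5% of the brighter members were below 0. The dimmer members were less stable: without Hdac3-flox/flox replicate 2 their count below 0 went from 14 to 23 of 48 (47.9%) and their median from 0.07 to 0.015. With each other array left out in turn, 22.9% to 35.4% of them were below 0 (median 0.03 to 0.10). Signal depends on the probes of a row as well as on RNA, so the split orders rows and not expression between genes. No test of the members against other genes was made.

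**Figure D4:**
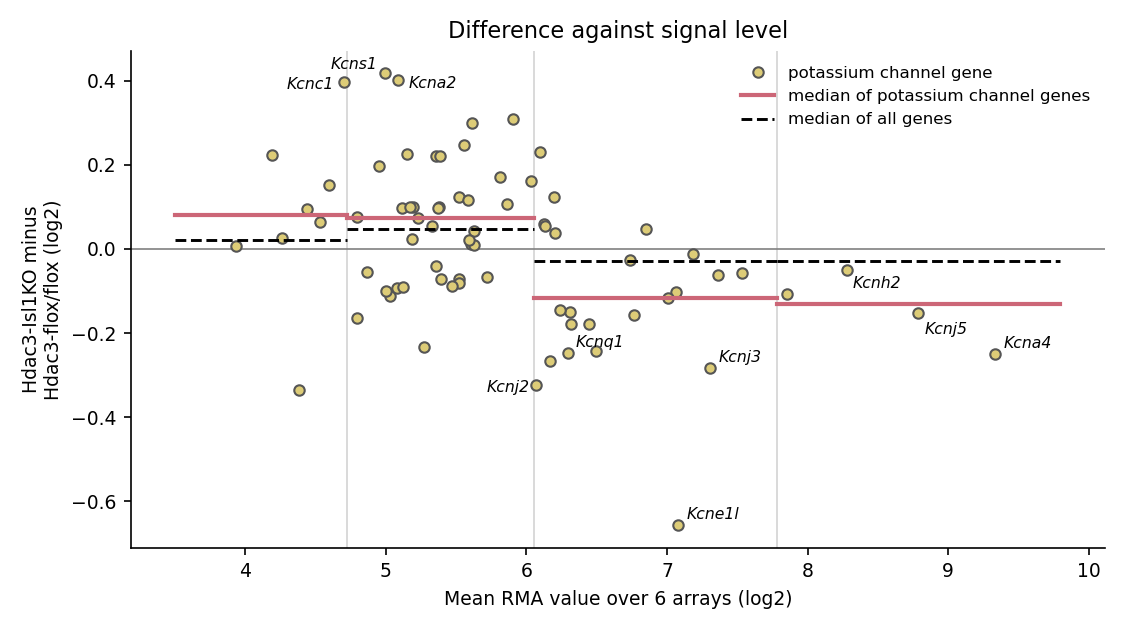
Difference in log2 value, Hdac3-Isl1KO minus Hdac3-flox/flox (y axis), against the mean RMA log2 value over 6 arrays (x axis) for the 75 potassium channel genes. Grey verticals part all genes into equal groups by mean value at 4.72, 6.05 and 7.78, and the lines give the median difference of the potassium channel genes (solid) and of all genes (dashed) in each. The potassium channel medians are 0.08 and 0.07 in the dimmer groups and -0.12 and -0.13 in the brighter ones.

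A list of 27 genes chosen for a role in cardiac repolarising or resting currents held 25 measured members. It took in Kcna2 and Kcnc1, given above as pores of axons and neurons, and not Kcne1l, the member that passed. None on the list passed the test. Differences were below 0 for 14 (median -0.07), and 7 had a limma unadjusted p under 0.05, 5 lower (Kcnj3, Kcnq1, Kcnj2, Kcnn2 and Kcnj5) and 2 higher (Kcna2 and Kcnc1). That is 28.0% of the list, beside 14.5% of all genes (7.96% lower and 6.57% higher). Of the 13 brighter genes of the list 11 lay below 0, and of the 12 dimmer genes 3. The median of the list was 0.03 without Hdac3-Isl1KO replicate 1 and lay between -0.09 and -0.02 with any other array left out. Cardiomyocyte markers had a median of -0.10 in the same comparison, and none of the 10 passed. Of these markers 8 lay below 0, while Myl7 (0.16, without overlap) and Tnni1 (0.02) lay above. The part of cardiomyocyte content in the list was not tested.

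Channel partners that the naming rule does not take in were fixed as a list of 23 accessory and further pore genes, all measured. None passed the test, 13 lay above 0 (median 0.006), and 5 had a limma unadjusted p under 0.05 (21.7%, beside 14.5% of all genes). Higher were Kcnip1, which read 5.83, 5.47 and 5.92 against 6.13, 6.14 and 6.45 (0.50, limma adjusted p = 0.210), and Kcnip3 (0.32, limma adjusted p = 0.249), both calcium-binding partners of Kcnd pores. The groups of both were apart. Kcnip2, the partner of Kcnd pores in adult ventricle, was dim at a mean of 4.25 and differed by -0.04. Lrrc38, an auxiliary subunit of the Kcnma1 channel, was also higher (0.23, limma adjusted p = 0.284), while Kcnma1 itself differed by 0.01 and its bright subunit gene Kcnmb1 by 0.08. Lower beside Abcc9 was Akap9, a scaffold that brings protein kinase A to Kcnq1 (8.74 ± 0.06 against 8.48 ± 0.06, SD, n = 3 each; difference -0.27, limma adjusted p = 0.184). Akap9 passed with either trended prior (0.0281 and 0.0291), and its range over all alternatives was 0.0281 to 0.432. Either trended prior called 866 of 22180 genes, beside 95 as reported.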

How the data were processed

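Per the labels' protocols, pooled hearts gave RNA through Qiagen RNeasy columns, and 100 ng was labelled with the Affymetrix WT PLUS kit. The authors deposited log2 expression values made with oligo and RMA, per the submitters' processing notes; RMA subtracts modelled background, gives all arrays 1 distribution of probe signals and combines the probes of a row, and it shrinks differences of dim rows. Software versions and the genome build: not given in the sources used here. Of 41345 array rows, 23521 had 1 symbol in the platform annotation, 1814 several and 16010 none listed, and 23328 matched RefSeq (GRCm38.p6) by gene number. The row with the highest mean was used for each of 22180 genes (4 of the 75 members had several rows), with no filter. The test was limma's moderated, two-sided one (version 3.58.1 under R 4.3.3), with 1 variance prior for all genes, 4 residual degrees of freedom and Benjamini-Hochberg adjustment over all genes. Alternatives changed normalization, row choice, filter, prior, array weights, the replicate block and the arrays used. The number of arrays limits precision. No detection calls or scan dates were used. On simulated data for this comparison with 22180 genes, 85.5% of changes of 1 and 28.5% of changes of 0.5 (log2) were recovered. There were 200 changed genes in each run, with 11 and 6 false calls. Spreads were shuffled over genes there, so the simulation does not hold the tie between signal and spread. Figures used matplotlib 3.10.9.

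The members, the gene lists (cardiac repolarisation, channel partners, receptor control and 9 cell type marker lists) and the tests were chosen with earlier results of these data known. Genes named were members past the threshold or at an unadjusted p under 0.05, the 10 brightest members, all of the cardiac list, and partner genes at an unadjusted p under 0.05. Kcng1, Kcnn4 and other members given to describe a subfamily, neighbours in gene order, and partner genes above that p were named after their values were seen.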

Additional observations from a re-analysis of the deposited data

How the results depend on the processing

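Of the 16 alternatives, the count of potassium channel genes called lower, 1 as reported, was 0 with the replicate block, quantile normalization, arrays centred on their medians and the mean of a gene's rows, 0 to 0 with 1 array left out, and 2 (Kcne1l and Kcnj3) without genes below the median row; none was called higher in any. Members at an unadjusted p under 0.05 numbered 7 to 11 with 1 array left out. Of all 22180 genes, 2 to 25 were called in those fits. Partner genes called, 0 as reported, were 2 without genes below the median row, 1 without those below the 25th percentile row, 3 with either trended prior and 1 with array weights. More of all genes passed in these settings too: 617 of 12480, 235 of 17686, 866 of 22180 and 243 of 22180 in that order. As reported, 95 of 22180 passed. The median difference was -0.084 without genes below the median row, which kept 32 members, and that of the cardiac list -0.14 there and -0.094 to 0.027 with 1 array left out. The replicate block matched pools by number, and whether same-numbered pools were handled together is not known here. Their deviations from the group means correlated at -0.013, -0.086 and 0.040, and those of other pairs at -0.12 to 0.12. Such correlations cannot show whether pools were paired. With the block, Kcne1l had a limma adjusted p of 0.193, and 0 of 22180 genes passed, with 2744 at an unadjusted p under 0.05.

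Of 43 named members and partners 31 kept their direction in all alternatives that included them. The other 12 had small differences and turned with 1 array left out, over ranges of -0.12 to 6.4e-04 (Kcnh2), -0.13 to 0.012 (Kcnq5), -0.17 to 0.021 (Kcnk6), -0.063 to 0.043 (Kcng2), -0.044 to 0.040 (Kcne2), -0.17 to 0.027 (Kcne3), -0.024 to 0.12 (Kcne4), -0.035 to 0.057 (Kcnj12), -0.062 to 0.32 (Kcnj14), -0.083 to 0.15 (Kcnk1), -0.029 to 0.098 (Kcnn1) and -0.19 to 0.028 (Kcnn3). Isl1 ranged from -0.095 to 0.058. Quantile normalization also turned Kcnk6 (0.0057), Kcng2 (0.052) and Isl1 (0.026), and array weights turned Kcnq5 (0.0015) and Kcne2 (-0.014). The causes were not tested. With 3 arrays per group and no detection calls, small changes of dim rows could not be detected.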

Other observations

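Kcnq1ot1, the long noncoding RNA transcribed from within Kcnq1 on the opposite strand, is no member by the naming rule. It read 7.79, 7.75 and 7.71 in Hdac3-flox/flox and 7.65, 7.56 and 7.67 in Hdac3-Isl1KO. The groups did not overlap (difference -0.12, limma unadjusted p = 0.107, adjusted p = 0.454), and Kcnq1 differed by -0.25 in the same hearts. Kcnd3os, the noncoding gene beside Kcnd3, differed by 0.08 with overlapping groups, where Kcnd3 differed by 0.11. Among members and partners, 12 pairs were next to each other among protein-coding genes in the RefSeq order, and 7 of these had differences of the same sign.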
